A study of Danio rerio with 48 samples.

Results

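The change in transcript levels of zebrafish yolk tissue between 6 and 10 hours post fertilization (hpf) was measured by bulk RNA sequencing in 8 libraries, 4 of yolk at 6 hpf and 4 of yolk at 10 hpf. These are 8 of the 48 samples of the series. Every embryo was wild type, the labels name no treatment or strain, and by the labels the groups differ in age alone. Of 36109 genes in the count table, 19208 passed a filter on low counts (edgeR's filterByExpr, minimum count 10, minimum total 15) and were tested, and 5902 had 0 counts in all 8 libraries. The study asks how Hnf4 factors and lipoproteins bring lipid from yolk to embryo, and this comparison addresses how transcripts of that supply and of other functions changed in yolk during gastrulation. Wild type whole embryos of 6 and 10 hpf, 4 libraries each, served for comparison, and they contain the yolk.

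The zebrafish yolk is a single large cell that holds maternal lipid and protein. Around it lies the yolk syncytial layer, a thin cytoplasm with many nuclei that takes up yolk, packs lipid into particles built on apolipoprotein B and passes them to the embryo. In the endoplasmic reticulum microsomal triglyceride transfer protein loads lipid onto apolipoprotein B, and COPII vesicles carry the particle onward. During gastrulation the blastoderm and its outer sheet, the enveloping layer, spread over the yolk cell in the movement called epiboly, so that the tissue touching the yolk differs between the 2 ages. The labels do not say how yolk was separated from the embryo or how many embryos entered a library.

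Levels are CPM, counts per 1000000 counts of the library after TMM scaling. They are given for replicates 1 to 4 in that order, or as mean ± SD (n = 4 per age). Changes are log2 ratios of 10 over 6 hpf ± SE from edgeR's quasi-likelihood test, with Benjamini-Hochberg adjustment over the 19208 genes and a threshold of 0.05. The labels do not say whether the replicates were separate clutches, so the p-values measure the spread between these samples. CPM is a share of the counted RNA, so that fewer cells or nuclei of a type and less of a transcript in each cannot be told apart, and neither can a change in the total RNA of the tissue.

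Totals of the 8 libraries ran from 32426641 to 37724311 counts. Age separated the libraries on the first principal component, which held 70.1% of the variance. The second, with 7.80%, set replicate 2 of 6 hpf apart from the other 7 libraries. That library carried more transcripts of some genes of the enveloping layer, the outermost sheet of the blastoderm, but not of all. The abundant keratin gene krt8 had its lowest 6 hpf level in that library. The surface antigen gene lye stood at 15.6, 235, 18.2 and 22.8 CPM at 6 hpf and 4.23, 5.94, 4 and 5.07 CPM at 10 hpf. Tight junction claudin cldne stood at 12.8, 90.9, 14.3 and 23.4 CPM at 6 hpf and 1.8, 2.57, 0.748 and 1.53 CPM at 10 hpf. Keratin krt97 was at 18.3, 223, 20.5 and 31.1 CPM at 6 hpf and 5.45, 8.05, 3.86 and 4.33 CPM at 10 hpf. In all 3 genes replicate 2 was above every other 6 hpf library by a wide margin, and every 10 hpf library was below the remaining 3. Summed over 29 tested genes of the enveloping layer and epidermis, the level was 7196 to 9929.7 CPM at 6 hpf, highest in replicate 2, and 5584 to 6488 CPM at 10 hpf. Without that library the log2 changes of lye, cldne and krt97 were -1.97, -3.34 and -2.10, against -3.92, -4.41 and -3.76 with it. Mitochondrially encoded genes took 3.27 to 4.87% of the counts at 6 hpf and 2.59 to 3.65% at 10 hpf.

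The yolk label was checked at 6 hpf against marker genes of the yolk syncytial layer, mxtx1 and sox32. The check covers neither 10 hpf nor mxtx2, a further marker gene of the layer whose level in yolk was low. In the 16-library scaling used for whole embryos, mxtx1, a homeobox gene of that layer, stood at 377 ± 68.9 CPM in yolk and 29.3 ± 4.58 CPM in whole embryos at 6 hpf. The endodermal gene sox32, also active in the layer, stood at 1056 ± 85.2 CPM in yolk and 135 ± 17.4 CPM in whole embryos. Markers of embryonic tissue were present too. Their summed level in yolk at 6 and 10 hpf was 56.5 to 135 and 327 to 442 CPM for 12 tested axial mesoderm genes, and 24 to 97 and 81.5 to 155 CPM for 12 paraxial mesoderm genes. For 21 neural genes it was 84.1 to 122 and 107 to 165 CPM, and for 14 blood and vessel genes 53 to 125 and 65 to 93.9 CPM. At 6 hpf replicate 2 was the highest library in each of these sums, as in that of the enveloping layer. The 6 hpf sums of gastrula patterning and endoderm genes were highest in replicate 1. The axial ranges do not overlap between the ages, and the other 3 do. Most of the axial sum was 1 gene, the tetraspanin cd9b, at means of 54.6 and 258 CPM. The means of the whole axial sum were 91.2 and 368 CPM.

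**Figure D1:**
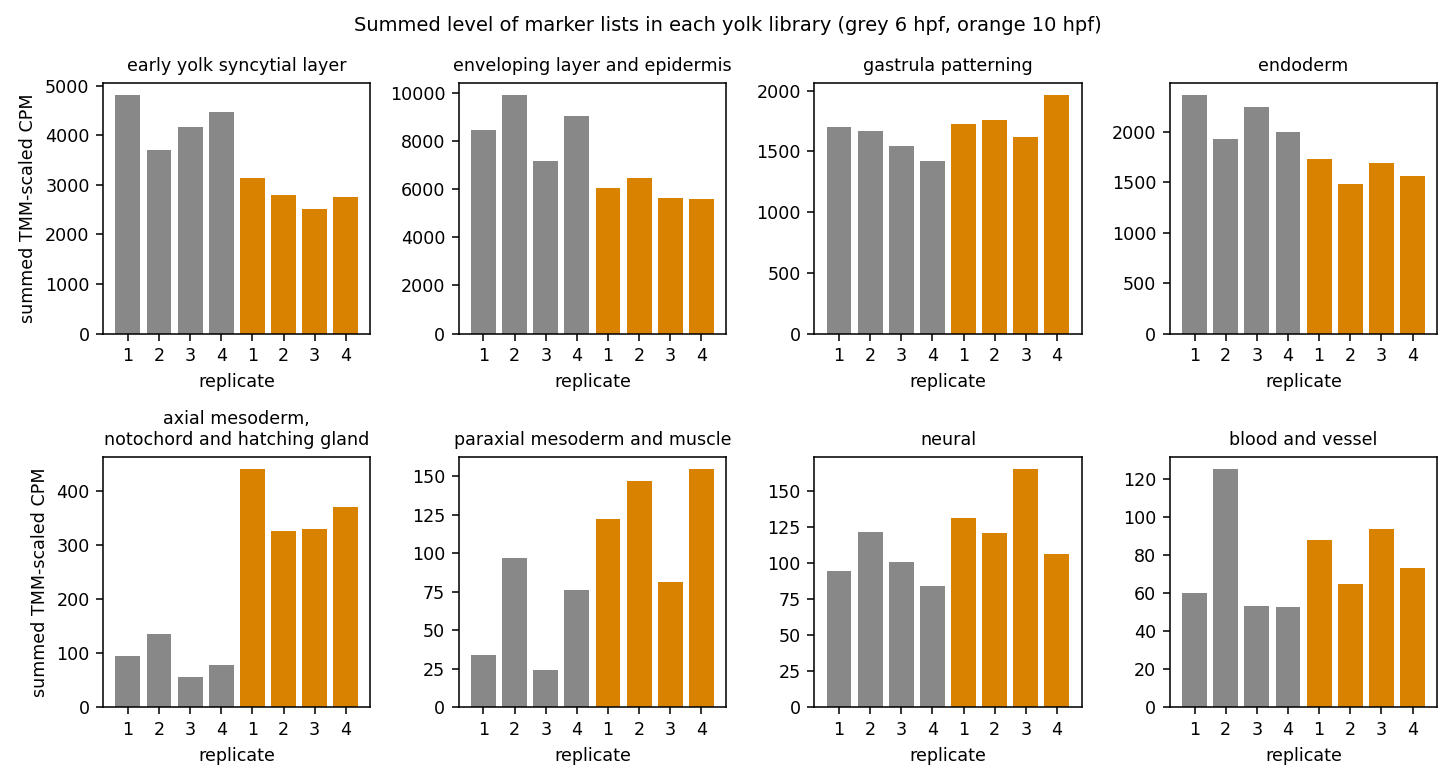
Summed TMM-scaled CPM of 8 marker lists (vertical axis) in each yolk library (horizontal axis, replicates 1 to 4), with 6 hpf in grey and 10 hpf in orange. Replicate 2 of 6 hpf is highest for the enveloping layer and epidermis and for blood and vessel. Among the 6 hpf bars it is also highest for axial mesoderm, paraxial mesoderm and neural genes. The 10 hpf bars are all above the 6 hpf bars for axial mesoderm, a sum that is mostly cd9b.

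Between 6 and 10 hpf 5390 genes (28.1% of those tested) rose in yolk and 5025 (26.2%) fell, 54.2% in either direction. The 2 ages did not overlap in any library for 10071 genes (52.4%). Among the genes that rose, 4188 did so by 2-fold or more and 1009 by 10-fold or more, and the median was 3.39-fold. Among those that fell the numbers were 3612 and 726, with a median of 2.95-fold. The median log2 change of all tested genes was -0.0025, and scaling by library totals alone would move it to -0.146. With 54.2% of all genes called, the counts and median of a gene list are to be read beside these values.

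**Figure D2:**
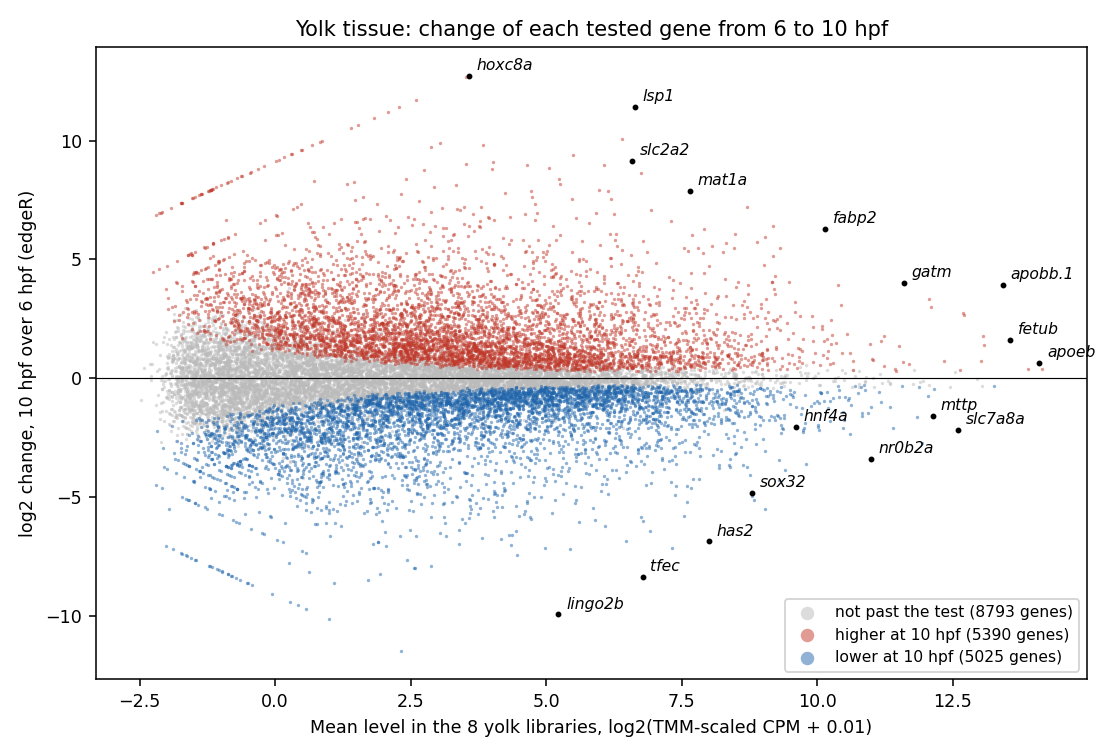
Each dot is 1 of the 19208 tested genes, with its mean level over the 8 yolk libraries on the horizontal axis (log2 of CPM plus 0.01) and its log2 change from 6 to 10 hpf on the vertical axis. Red marks the 5390 genes higher at 10 hpf and blue the 5025 lower, and named black dots include apobb.1 and fetub above the zero line and mttp, hnf4a, sox32 and tfec below it.

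**Figure D3:**
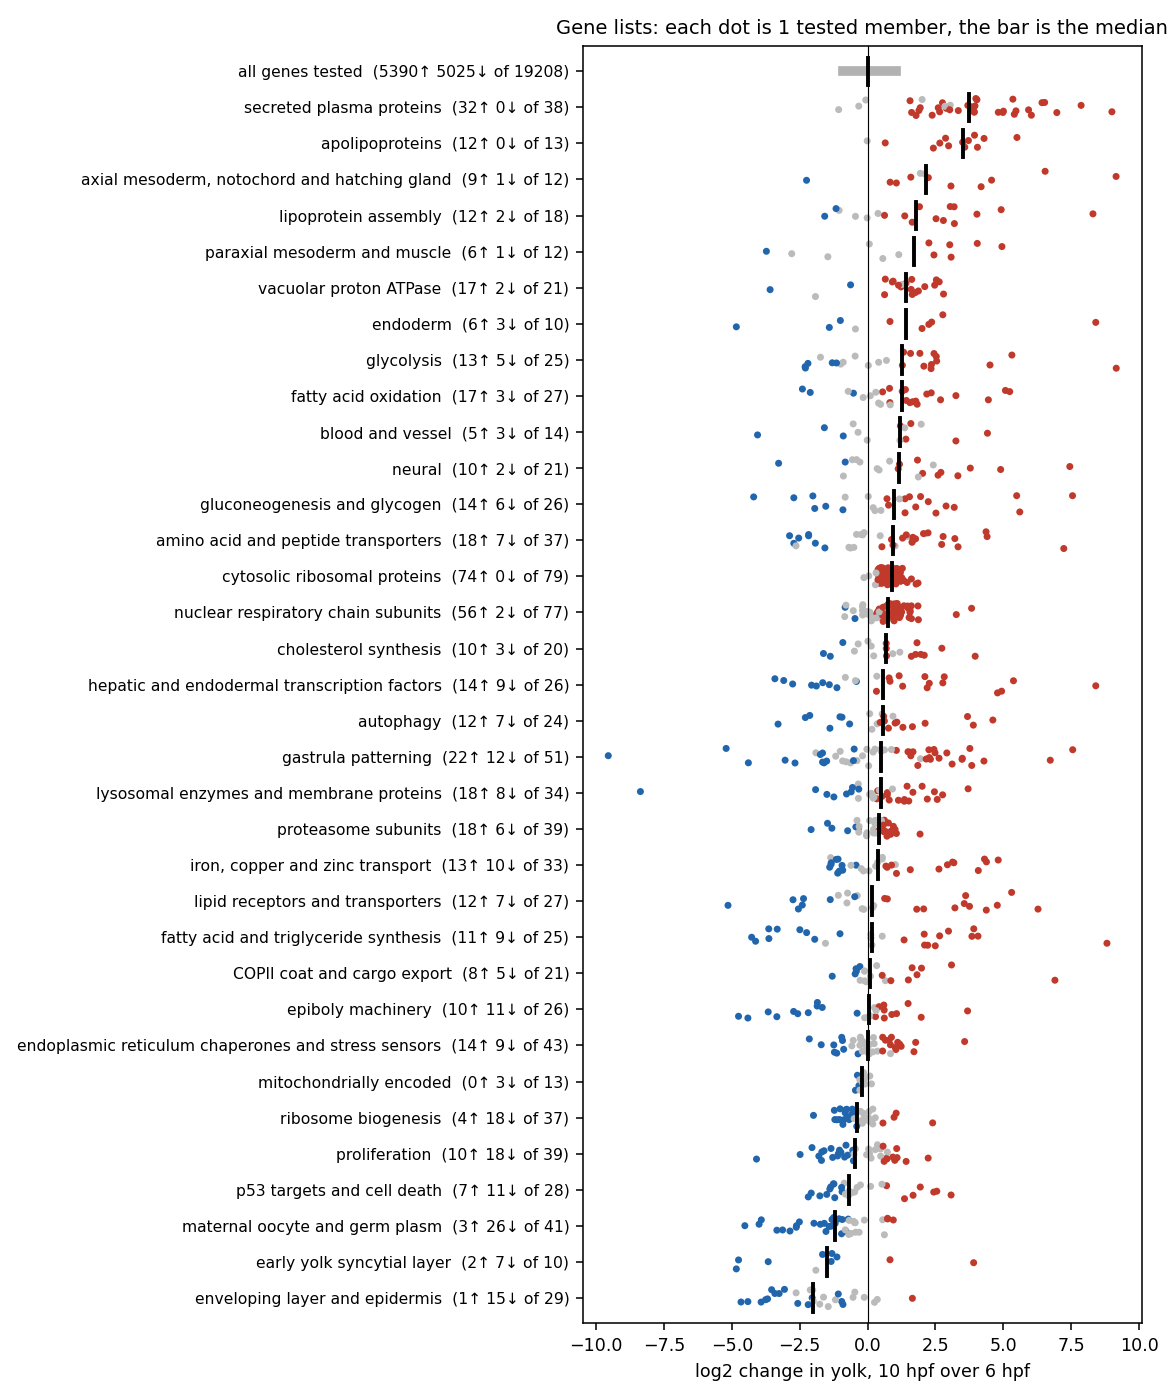
For each of 34 gene lists, every tested member is 1 dot at its log2 change from 6 to 10 hpf in yolk (horizontal axis), red if higher, blue if lower and grey if not past the test, with the list's median as a black bar and the counts beside its name. The top line gives the median and interquartile range of all 19208 genes. Plasma proteins and apolipoproteins have the highest medians, and the enveloping layer and the early syncytial layer the lowest.

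Most apolipoprotein transcripts rose. Of 13 tested apolipoproteins 12 rose, or 11 under library totals, and 0 fell, with a median log2 change of 3.50. The weakest call rested on 0.173 CPM at 6 hpf and 1.30 CPM at 10 hpf, with overlapping ages (edgeR adjusted p = 0.0496). In the table were 15 apolipoproteins. Those not tested had fewer counts at 10 hpf. apoea had 186 counts at 6 hpf and 17 at 10 hpf, and apoc4 had 28 and 8. Apolipoprotein B gene apobb.1, which encodes the structural protein of the lipid particle, stood at 1633, 1809.5, 848 and 1100.0 CPM at 6 hpf and 19521, 22839.7, 17963 and 22337 CPM at 10 hpf. It rose 15.3-fold (log2 change 3.94 ± 0.24, edgeR adjusted p = 5.2e-07), and every 10 hpf library was far above every 6 hpf library. Its paralog apoba stood at 79.7, 77.8, 48.7 and 118 CPM at 6 hpf and 1202, 1571, 1053 and 1531 CPM at 10 hpf and rose 16.5-fold (log2 change 4.05 ± 0.27, edgeR adjusted p = 8.8e-07). The third copy, apobb.2, went from 22.9 to 301 CPM on average. Reads of such copies may be shared between them, so their separate levels are uncertain.

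Apolipoproteins of other particle classes moved the same way. Apolipoprotein A-I gene apoa1b, the main protein of high-density particles, stood at 2138, 1455, 1426 and 2336 CPM at 6 hpf and 12690.4, 12680.5, 11890.4 and 9220.4 CPM at 10 hpf. The groups did not overlap, and the gene rose 6.32-fold (log2 change 2.66 ± 0.20, edgeR adjusted p = 1.5e-06). Apolipoprotein A-IV gene apoa4b.1 went from 27.3 ± 10.3 CPM at 6 hpf to 1238 ± 308 CPM at 10 hpf and rose 45.3-fold (log2 change 5.50 ± 0.34). Smaller was the change of apoeb, whose product is a ligand of lipoprotein receptors, with 14841, 11459, 13424 and 14899.6 CPM at 6 hpf and 22383, 20612, 21396 and 21293 CPM at 10 hpf. It rose 1.57-fold (log2 change 0.65 ± 0.11, edgeR adjusted p = 0.00065), again without overlap. Of the tested members only apoc2, named after its values were seen, did not pass the test, with 435 ± 85.8 CPM at 6 hpf and 431 ± 82.2 CPM at 10 hpf (log2 change -0.01 ± 0.17, edgeR adjusted p = 0.952).

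Genes of the machinery that loads the particle moved in both directions. Of 18 tested genes of lipoprotein assembly 12 rose and 2 fell, with a median log2 change of 1.78. The lipid transfer gene mttp went against the apolipoproteins, with 7199, 6774, 6528 and 6369.5 CPM at 6 hpf and 2221, 1938, 2541 and 2289 CPM at 10 hpf. It fell 2.99-fold (log2 change -1.58 ± 0.11, edgeR adjusted p = 1.3e-06), and its lowest 6 hpf library was above its highest 10 hpf library. pla2g12b, which helps to bring lipid to apolipoprotein B, stood at 1685, 1978, 1348 and 1476 CPM at 6 hpf and 4370.5, 4043, 4270.2 and 4069 CPM at 10 hpf and rose 2.58-fold (log2 change 1.37 ± 0.13, edgeR adjusted p = 1e-05). Acyltransferase dgat2, which makes triglyceride in the last step of its synthesis, stood at 187, 203, 69.6 and 144 CPM at 6 hpf and 1352, 1253, 1302 and 1634 CPM at 10 hpf. It rose 9.17-fold (log2 change 3.20 ± 0.30, edgeR adjusted p = 1.1e-05).

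Several assembly genes started from low levels. cideb, whose product enlarges nascent particles in mouse liver, went from 3.43 ± 0.925 CPM at 6 hpf to 104 ± 8.45 CPM at 10 hpf and rose 30.3-fold (log2 change 4.92 ± 0.22). Sterol esterification gene soat1 went from 19.3 to 175 CPM and rose 9.11-fold. Its relative soat2 had 1 count in all 6 hpf libraries together and 452 at 10 hpf, a ratio of 473, with an exact 95% counting interval of 84.4 to 18711. creb3l3a, a membrane-bound transcription factor that acts on lipoprotein genes, stood at 27.9, 35.4, 7 and 12 CPM at 6 hpf and 328, 294, 335 and 385 CPM at 10 hpf. It rose 16.3-fold (log2 change 4.03 ± 0.47, edgeR adjusted p = 7.7e-05), and creb3l3b rose 3.76-fold (log2 change 1.91 ± 0.21, edgeR adjusted p = 2.4e-05).

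Export from the endoplasmic reticulum also went both ways, beside 28.1% of all tested genes up and 26.2% down. Of 21 COPII and cargo genes 8 rose (38.1%) and 5 fell (23.8%), with a median of 0.11. Only 2 or 3 fell with no filter, in the fit of 16 libraries, and without any 1 of replicates 1, 2 and 3 of 6 hpf or 1, 2 and 4 of 10 hpf. sec16b, a scaffold of the exit sites, rose from 0.503, 0.595, 0.168 and 0.35 CPM at 6 hpf to 59.5, 56.5, 37.9 and 40 CPM at 10 hpf, 119-fold (log2 change 6.90 ± 0.35, edgeR adjusted p = 1.6e-07). The small GTPase gene sar1ab rose 8.52-fold, its activator preb 3.96-fold, and cargo adaptor sec24d 3.53-fold. Cargo receptor mia2, which carries large particles, had 1581, 991, 994 and 1003 CPM at 6 hpf and 1003, 861, 1074 and 838 CPM at 10 hpf. The groups overlapped, and the gene did not pass the test (log2 change -0.28 ± 0.17, edgeR adjusted p = 0.197).

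**Figure D4:**
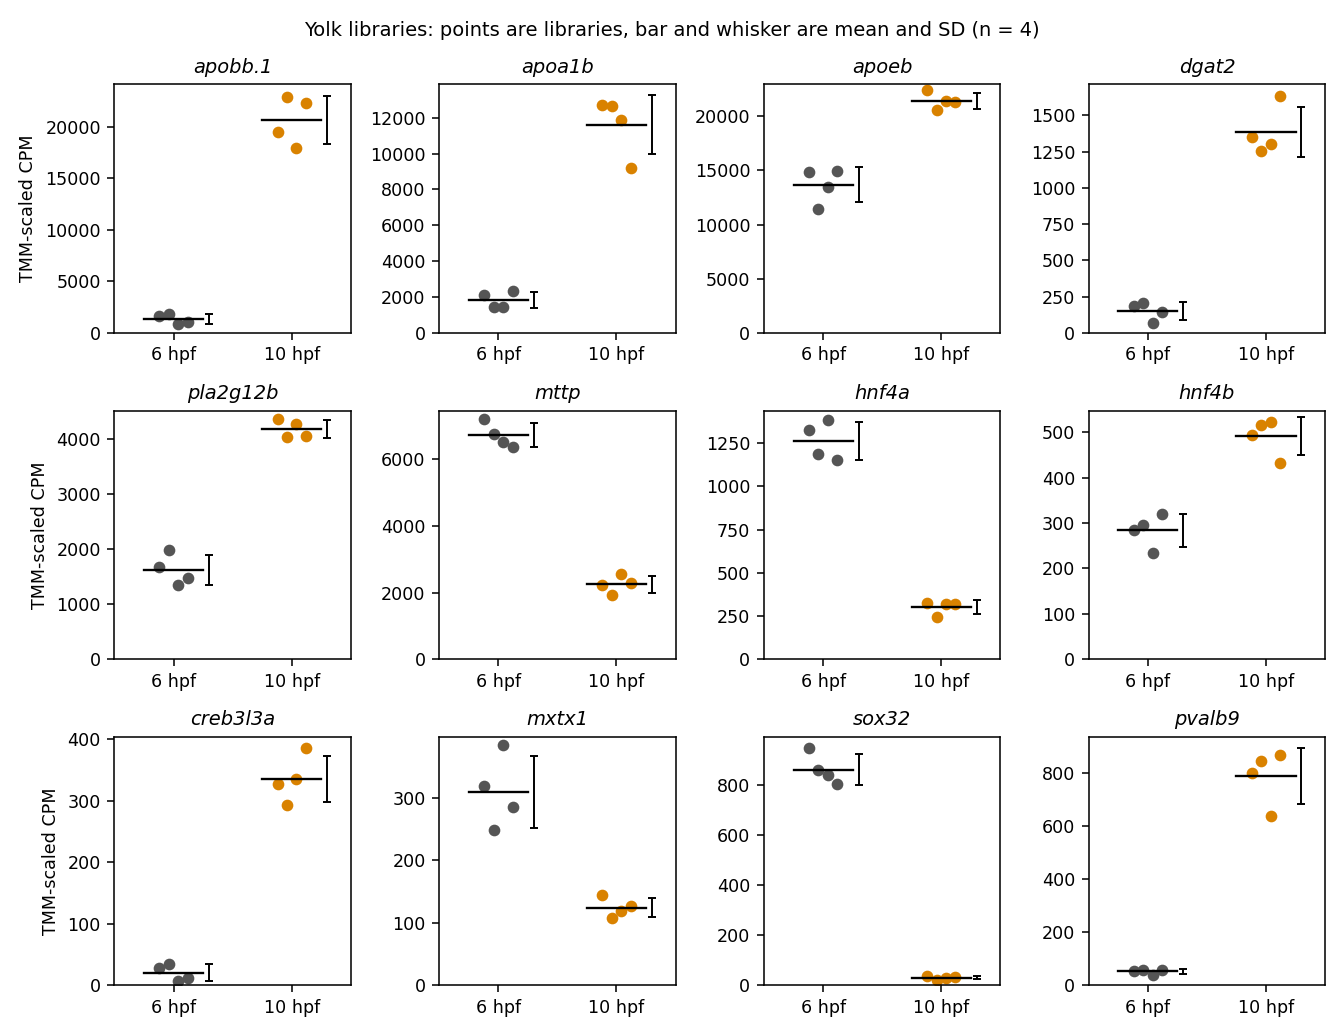
TMM-scaled CPM (vertical axis, from 0) of 12 genes in the 4 yolk libraries of 6 hpf and the 4 of 10 hpf; points are libraries, and the bar and whisker are mean and SD (n = 4). In none of the 12 panels do the ages overlap, and mttp, hnf4a, mxtx1 and sox32 are lower at 10 hpf while the other 8 are higher.

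Transcription factors of liver and endoderm split by member. Of 26 tested 14 rose and 9 fell, with a median of 0.57. hnf4a, a nuclear receptor that acts on lipoprotein genes in mammalian liver, stood at 1329, 1189, 1381 and 1152 CPM at 6 hpf and 325, 245, 320.1 and 318 CPM at 10 hpf. It fell 4.18-fold (log2 change -2.06 ± 0.13, edgeR adjusted p = 5.2e-07). Its paralog hnf4b stood at 284, 296, 235 and 320.1 CPM at 6 hpf and 494, 516, 522 and 432 CPM at 10 hpf and rose 1.73-fold (log2 change 0.79 ± 0.12, edgeR adjusted p = 0.00034). Neither paralog overlapped between the ages, and the pair moved in opposite directions. The remaining paralog, hnf4g, had 0 counts at 6 hpf and 63 at 10 hpf over 4 libraries each and was not tested.

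Among the other members both directions occurred. nr0b2a, a nuclear receptor without a DNA-binding domain that represses other receptors, stood at 3975, 3520.0, 4269.9 and 3125 CPM at 6 hpf and 369, 301, 339.8 and 387 CPM at 10 hpf. It fell 10.7-fold (log2 change -3.41 ± 0.14, edgeR adjusted p = 6.5e-08). onecutl fell 8.51-fold and foxa3 2.66-fold. The pioneer factor gene foxa1 had 4 counts over the 6 hpf libraries and 1466 at 10 hpf. Of the GATA factors of endoderm and yolk syncytial layer, gata6 fell from 2159 to 987 CPM (log2 change -1.13 ± 0.16, edgeR adjusted p = 0.00014) and gata5 rose from 385 to 682 CPM (log2 change 0.83 ± 0.13, edgeR adjusted p = 0.00039).

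Early regulators of the yolk syncytial layer fell as a list: 7 of 10 tested members fell and 2 rose, with a median of -1.50. mxtx1 stood at 319, 249, 383 and 284 CPM at 6 hpf and 144, 108, 118 and 127 CPM at 10 hpf and fell 2.48-fold (log2 change -1.31 ± 0.15, edgeR adjusted p = 4.1e-05). sox32, the SOX factor that specifies endoderm, stood at 948, 861, 841 and 804 CPM at 6 hpf and 37.3, 21.5, 28.8 and 33.4 CPM at 10 hpf. It fell 28.5-fold (log2 change -4.83 ± 0.19, edgeR adjusted p = 4.1e-08). mxtx2, a homeobox gene upstream of Nodal signals in the layer, fell from 2.6 to 0.203 CPM (log2 change -3.66 ± 0.61, edgeR adjusted p = 0.00051), with a log2 change of -4.45 without replicate 1 of 10 hpf. eomesa, a maternal T-box gene, fell from 31.4 to 1.16 CPM. The zinc exporter gene slc30a1a fell from 484 to 191 CPM (log2 change -1.34 ± 0.15, edgeR adjusted p = 3.6e-05). The 2 that rose were gata5 and pvalb9, a calcium-binding parvalbumin, which stood at 52.7, 57.8, 40.6 and 59.4 CPM at 6 hpf and 801, 846, 637 and 869 CPM at 10 hpf. It rose 15-fold (log2 change 3.91 ± 0.17, edgeR adjusted p = 7.3e-08).

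Genes linked to epiboly split evenly, with 10 of 26 up, 11 down and a median of 0.06. Under scaling by library totals 6 rose. The pluripotency factor pou5f3 fell from 41.9 ± 22.5 CPM at 6 hpf to 4.13 ± 0.742 CPM at 10 hpf, 10.1-fold (log2 change -3.34 ± 0.34), and replicate 2 was its highest 6 hpf library. Without that library the log2 change was -2.89. Non-muscle myosin heavy chain myh9a fell 3.18-fold and the membrane linker ezrb 6.61-fold. bcl2l10, a survival factor of the BCL2 family, stood at 1391, 1538, 1578 and 1066 CPM at 6 hpf and 404, 263, 324 and 234 CPM at 10 hpf and fell 4.55-fold (log2 change -2.18 ± 0.19, edgeR adjusted p = 5.8e-06). Tight junction scaffold tjp1b rose from 4.95 ± 1.45 CPM at 6 hpf to 63.7 ± 9.55 CPM at 10 hpf, 12.8-fold (log2 change 3.68 ± 0.23, edgeR adjusted p = 4.6e-07).

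Plasma proteins, which the liver secretes in later life, rose as a list. Of 38 tested 32 rose and 0 fell, with a median of 3.75. Fetuin B gene fetub, a protease inhibitor, stood at 6678, 5515, 4692 and 6725 CPM at 6 hpf and 17823, 17825, 17954 and 19047 CPM at 10 hpf. It rose 3.08-fold (log2 change 1.62 ± 0.13, edgeR adjusted p = 3.2e-06). The iron carrier transferrin, tfa, stood at 2046, 1859, 1155 and 1785 CPM at 6 hpf and 12427, 13186, 10188 and 10497 CPM at 10 hpf and rose 6.76-fold (log2 change 2.76 ± 0.19, edgeR adjusted p = 8.3e-07). a2ml, an alpha-2-macroglobulin-like protease inhibitor, went from 492 to 1454 CPM.

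Further members of the list rose from lower levels. serpina1l, an antitrypsin-like serpin, stood at 13.3, 16.6, 6.78 and 16.7 CPM at 6 hpf and 1215, 1017, 1329 and 1015 CPM at 10 hpf and rose 85.9-fold (log2 change 6.42 ± 0.31, edgeR adjusted p = 1.2e-07). serpinf2b, an antiplasmin gene, rose 125-fold and ambp, the precursor of bikunin, 65.5-fold (log2 change 6.03, and 7.09 without replicate 2 of 6 hpf). Complement component gene c5 went from 0.601 ± 0.459 CPM at 6 hpf to 141 ± 35.8 CPM at 10 hpf, 233-fold (log2 change 7.86 ± 0.49, and 8.51 without the same library). Complement factor B, cfb, went from 1.19 ± 0.733 CPM at 6 hpf to 109 ± 9.48 CPM at 10 hpf, 91.9-fold. c8a, of the membrane attack complex, had 6 counts over the 6 hpf libraries, all in replicate 2, and 3181 at 10 hpf. The gene afp4, named for an antifreeze protein and outside these lists, stood at 4142, 3591, 3396 and 4233 CPM at 6 hpf and 13968, 13602, 12499 and 13135 CPM at 10 hpf and rose 3.46-fold (log2 change 1.79 ± 0.11, edgeR adjusted p = 5.3e-07).

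Lysosomal genes, whose products digest yolk protein and lipid, moved less. 18 of 34 rose, 8 fell and the median was 0.48. Cathepsin C gene ctsc stood at 17718, 16321, 13673 and 15533 CPM at 6 hpf and 23044, 17841, 20589 and 20317 CPM at 10 hpf. It rose 1.29-fold (log2 change 0.37 ± 0.12, edgeR adjusted p = 0.0233), a call that was lost under library totals, in the fit of 32 libraries and without any 1 of replicates 3 and 4 of 6 hpf and 1 and 3 of 10 hpf. psap, precursor of the saposins that help to break down sphingolipid, rose 1.66-fold from 6248 ± 653 CPM at 6 hpf to 10342 ± 542 CPM at 10 hpf. Cathepsin L gene ctsla had 10234, 8386, 8835 and 10343 CPM at 6 hpf and 8644, 6115, 7995 and 7079 CPM at 10 hpf and did not pass the test (log2 change -0.34 ± 0.13, edgeR adjusted p = 0.0504), though it did with a replicate block (edgeR adjusted p = 0.0222). The cathepsin S gene ctss2.1, outside the list, fell from 5311 ± 503 CPM at 6 hpf to 3143 ± 873 CPM at 10 hpf (log2 change -0.76 ± 0.18, edgeR adjusted p = 0.00495).

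Among lower-level lysosomal genes ctsz, hexa, glb1 and neu1, a carboxypeptidase and 3 glycosidases, rose 13-, 6.79-, 5.51- and 4.59-fold. Without replicate 4 of 6 hpf the log2 change of ctsz was 4.29, against 3.70 with it. tfec, of the transcription factor family that controls lysosomal genes in mammals, went the other way, with 220.1, 178, 263 and 214 CPM at 6 hpf and 0.522, 0.4, 0.863 and 0.855 CPM at 10 hpf. It fell 330.2-fold (log2 change -8.37 ± 0.27, edgeR adjusted p = 1.7e-08), among the 10 largest falls that met the naming rule.

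Subunits of the vacuolar proton pump, which acidifies the lysosome, rose as a list: 17 of 21 tested subunits rose, 2 fell and the median was 1.42. Catalytic subunit gene atp6v1ab stood at 163, 146, 79.3 and 146 CPM at 6 hpf and 785, 830.0, 705 and 773 CPM at 10 hpf and rose 5.79-fold (log2 change 2.53 ± 0.21, edgeR adjusted p = 3.1e-06). atp6v1h rose 6.95-fold and atp6v0ca, of the proton-carrying ring, 3.13-fold. Of the paired B subunits atp6v1ba rose from 172 to 531 CPM while atp6v1b2 fell from 12.6 to 1.04 CPM. Autophagy genes were mixed, with 12 of 24 up, 7 down and a median of 0.56. wipi1 and optn rose 24.5- and 12.8-fold, and the autophagosome coat gene map1lc3b fell 4.38-fold from 283 ± 17.6 CPM at 6 hpf to 64.6 ± 13.3 CPM at 10 hpf.

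Genes of lipid uptake and handling moved in both directions. Of 27 lipid receptors and transporters 12 rose (44.4%) and 7 fell (25.9%), with a median of 0.18. Of all tested genes 28.1% rose and 26.2% fell. fabp2, the intestinal fatty acid binding protein, stood at 34, 29.5, 17.2 and 34.7 CPM at 6 hpf and 2720.4, 2427, 2216 and 1584 CPM at 10 hpf. It rose 77.5-fold (log2 change 6.28 ± 0.29, edgeR adjusted p = 1e-07) without overlap. The fatty acid transporter and acyl-CoA synthetase slc27a2a stood at 51.8, 35, 24.9 and 34.9 CPM at 6 hpf and 1189, 887, 1221 and 718 CPM at 10 hpf and rose 27.4-fold (log2 change 4.78 ± 0.27, edgeR adjusted p = 3e-07). Cholesterol exporter gene abca1a rose 13.5-fold from 8.29 ± 3.61 CPM at 6 hpf to 112 ± 28.8 CPM at 10 hpf, whereas its paralog abca1b had 2143 ± 452 CPM at 6 hpf and 2428 ± 152 CPM at 10 hpf and did not pass the test (log2 change 0.18 ± 0.15, edgeR adjusted p = 0.334). mfsd2ab, a lysophospholipid transporter, fell 35.3-fold from 91.6 ± 18.3 CPM at 6 hpf to 2.59 ± 0.553 CPM at 10 hpf.

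Of 25 genes of fatty acid and triglyceride synthesis 11 rose and 9 fell (median 0.16), and long-chain acyl-CoA synthetases, which activate fatty acids, were among both. acsl1b stood at 129, 173, 118 and 250.3 CPM at 6 hpf and 2840.3, 2244, 2526 and 2479 CPM at 10 hpf and rose 15-fold (log2 change 3.91 ± 0.24, edgeR adjusted p = 5.1e-07). acsl5 rose 16.8-fold and acsl4a 4.64-fold, while acsl4b, named after its values were seen, fell from 3.77 to 0.976 CPM (log2 change -1.95 ± 0.41, edgeR adjusted p = 0.00228). The elongase gene elovl5 rose 14.3-fold from 47.2 ± 18.9 CPM at 6 hpf to 677 ± 49 CPM at 10 hpf. In contrast agpat2, which makes phosphatidic acid on the way to triglyceride and phospholipid, stood at 872, 687, 684 and 695 CPM at 6 hpf and 79.2, 41.6, 61 and 53.7 CPM at 10 hpf. It fell 12.5-fold (log2 change -3.64 ± 0.20, edgeR adjusted p = 2.7e-07). The elongase genes elovl4b and elovl7a fell 17.5- and 19.3-fold. Without replicate 2 of 6 hpf the log2 change of elovl7a was -3.11, against -4.27 with it.

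Fatty acid oxidation genes rose more often than they fell, with 17 of 27 up, 3 down and a median of 1.28. cpt1ab, of the gate into mitochondria, rose 33.8-fold from 0.748 ± 0.376 CPM at 6 hpf to 25.5 ± 6.96 CPM at 10 hpf. The coactivator ppargc1b, which promotes mitochondrial genes, rose 37.6-fold from 1.66 ± 1.1 CPM at 6 hpf to 62.4 ± 7.97 CPM at 10 hpf. Carnitine carrier gene slc25a20 stood at 136, 130.0, 162 and 168 CPM at 6 hpf and 479, 567, 589.8 and 399.8 CPM at 10 hpf and rose 3.42-fold (log2 change 1.77 ± 0.15, edgeR adjusted p = 4.6e-06). In cholesterol synthesis 10 of 20 rose and 3 fell (median 0.69). fdps, which makes farnesyl diphosphate, rose 3.89-fold from 141 ± 37.8 CPM at 6 hpf to 550.2 ± 147 CPM at 10 hpf. dhcr7, of the last step, rose 15.6-fold from 4.59 ± 1.31 CPM at 6 hpf to 71.7 ± 10.6 CPM at 10 hpf, and the regulator insig1 6.66-fold.

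Genes of sugar metabolism rose more often than they fell. Of 26 genes of gluconeogenesis and glycogen 14 rose and 6 fell, with a median of 0.97. pck2, mitochondrial phosphoenolpyruvate carboxykinase, stood at 5585, 4953, 3945 and 4624 CPM at 6 hpf and 14623, 11269, 12703 and 11129 CPM at 10 hpf and rose 2.6-fold (log2 change 1.38 ± 0.14, edgeR adjusted p = 1.5e-05). Pyruvate carboxylase gene pcxb stood at 15.7, 14.8, 9.72 and 21.5 CPM at 6 hpf and 568, 821, 759 and 626 CPM at 10 hpf and rose 45-fold (log2 change 5.49 ± 0.26, edgeR adjusted p = 1.2e-07). The glucose-6-phosphate transporter slc37a4a and the phosphatase g6pca.2, which release glucose in the endoplasmic reticulum, rose 187- and 48.7-fold. Glycogen phosphorylase pygmb fell 18.3-fold.

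Of 25 glycolysis genes 13 rose and 5 fell, with a median of 1.28. The glucose transporter slc2a2 stood at 0.911, 0, 0.056 and 0.4 CPM at 6 hpf and 173, 196, 152 and 243 CPM at 10 hpf. It rose 571-fold (log2 change 9.16 ± 0.73, edgeR adjusted p = 6.9e-06) from values below 1 CPM in every 6 hpf library, and its log2 change was 10.20 without replicate 1 of 6 hpf. gapdh, which oxidizes glyceraldehyde phosphate, stood at 161, 161, 140.1 and 151 CPM at 6 hpf and 878, 936, 779 and 979 CPM at 10 hpf and rose 5.83-fold (log2 change 2.54 ± 0.12, edgeR adjusted p = 1e-07). pfklb, the liver type of phosphofructokinase, and eno3, an enolase, rose 5.45- and 5.77-fold.

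Amino acid transporter genes moved in both directions. Of 37 tested 18 rose and 7 fell, with a median of 0.93. slc7a8a, a neutral amino acid transporter of the plasma membrane, stood at 12123, 10361, 9641 and 8342 CPM at 6 hpf and 2462, 2003, 2388 and 2124 CPM at 10 hpf. It fell 4.51-fold (log2 change -2.17 ± 0.14, edgeR adjusted p = 6.1e-07). Its partner chain slc3a2b stood at 7489, 6753, 6327 and 6777 CPM at 6 hpf and 1286, 791, 1128 and 955 CPM at 10 hpf and fell 6.57-fold (log2 change -2.72 ± 0.16, edgeR adjusted p = 3.4e-07). slc43a2a, another neutral amino acid transporter, stood at 3.46, 6.52, 4.31 and 7.68 CPM at 6 hpf and 922, 885, 706 and 785 CPM at 10 hpf and rose 149.7-fold (log2 change 7.23 ± 0.29, edgeR adjusted p = 4.8e-08), while slc43a2b had 2803 ± 121 CPM at 6 hpf and 2376 ± 236 CPM at 10 hpf and did not pass the test. slc36a1 and slc7a7 rose 9.28- and 10.1-fold.

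Metal transport was mixed (13 of 33 up, 39.4%, 10 down, 30.3%, median 0.37), beside 28.1% up and 26.2% down of all tested genes. The iron exporter slc40a1 rose 19.8-fold from 0.802 ± 0.566 CPM at 6 hpf to 16.1 ± 5.01 CPM at 10 hpf. Transferrin receptor genes tfr1b and tfr2 rose 9.05- and 16.9-fold, and the heme oxygenase gene hmox1a 28.1-fold (log2 change 4.81, and 5.41 without replicate 4 of 6 hpf). Zinc importers slc39a1 and slc39a5 fell 2.23- and 2.06-fold from 1298 and 1408 CPM.

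Cytosolic ribosomal protein genes rose almost as a block, by a modest amount: 74 of 79 tested rose and 0 fell, with a median of 0.88, or 0.74 under scaling by library totals, where 67 rose. rplp0, of the ribosomal stalk, stood at 312, 365, 338 and 356 CPM at 6 hpf and 847, 889.7, 859.8 and 845 CPM at 10 hpf and rose 2.51-fold (log2 change 1.33 ± 0.10, edgeR adjusted p = 1.7e-06). Factors that build ribosomes moved the other way, with 18 of 37 down, 4 up and a median of -0.40. Nucleolin, ncl, stood at 1991, 1300.4, 1664 and 1489 CPM at 6 hpf and 1004, 872, 948 and 813 CPM at 10 hpf and fell 1.77-fold (log2 change -0.83 ± 0.14, edgeR adjusted p = 0.00065). rrp9, of the machinery that processes ribosomal RNA, fell 3.98-fold and nhp2 2.31-fold.

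Nuclear genes of the respiratory chain rose in 56 of 77 cases and fell in 2, with a median of 0.75. ATP synthase gene atp5f1b rose 2.34-fold from 124 ± 19.4 CPM at 6 hpf to 289.8 ± 32.9 CPM at 10 hpf. The mitochondrially encoded genes did not follow, with 0 of 13 up, 3 down and a median of -0.19. None fell in the fits of 16 or 32 libraries, or without any 1 of replicates 1, 2 and 3 of 6 hpf and 1, 3 and 4 of 10 hpf. mt-co1, a subunit of cytochrome oxidase, stood at 10936, 11673, 11446 and 9458 CPM at 6 hpf and 8079.6, 9797, 8992 and 8071 CPM at 10 hpf. The ages overlapped, and the call (log2 change -0.32 ± 0.11, edgeR adjusted p = 0.0371) was lost in each of these and with no filter. Proteasome genes rose in 18 of 39 cases and fell in 6 (median 0.40).

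Endoplasmic reticulum genes moved in both directions, with 14 of 43 up (32.6%), 9 down (20.9%) and a median of 0.02. These shares were near those of all tested genes, 28.1% up and 26.2% down. The stress transcription factor xbp1 stood at 1608, 1119.6, 1357 and 1293 CPM at 6 hpf and 808, 654, 607 and 709.7 CPM at 10 hpf and fell 1.94-fold (log2 change -0.95 ± 0.14, edgeR adjusted p = 0.0002). Chaperone genes pdia4 and sdf2l1 fell 4.43- and 3.27-fold. atf4a, of the amino acid and stress response, rose 3.27-fold from 104 ± 17.9 CPM at 6 hpf to 341 ± 30.6 CPM at 10 hpf, and the translocon gene sec61b 1.47-fold.

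Most maternal oocyte and germ plasm genes fell: 26 of 41 fell, 3 rose and the median was -1.19. Their summed level did not fall, with means of 2929 CPM at 6 hpf and 3027 CPM at 10 hpf. It ran from 2681 to 3298 CPM at 6 hpf and from 2193 to 3730 CPM at 10 hpf. ddx4, the vasa RNA helicase of germ cells, stood at 409.6, 313, 407 and 347 CPM at 6 hpf and 19, 13.3, 21.2 and 10.8 CPM at 10 hpf. It fell 23-fold (log2 change -4.52 ± 0.23, edgeR adjusted p = 1.6e-07). nanog, which starts zygotic transcription in fish, fell 16-fold from 33.6 ± 7.85 CPM at 6 hpf to 2.1 ± 0.265 CPM at 10 hpf, and the oocyte linker histone h1m 15.1-fold from 79.7 ± 22.3 CPM at 6 hpf to 5.28 ± 0.378 CPM at 10 hpf. Among the 3 that rose was igf2bp3, an RNA-binding protein gene, 1.93-fold.

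Proliferation genes moved in both directions. 18 of 39 fell, 10 rose and the median was -0.45. cdt1, which loads the replicative helicase, stood at 991, 484, 964 and 839.9 CPM at 6 hpf and 53, 44.4, 51.2 and 43.7 CPM at 10 hpf and fell 17.1-fold (log2 change -4.09 ± 0.23, edgeR adjusted p = 2.7e-07). The cyclin gene ccnb3 and the mitotic activator cdc20 fell 5.6- and 3.47-fold. Helicase subunit mcm6 rose from 8.48, 24.7, 10 and 8.35 CPM to 56.8, 65.8, 68.8 and 50.8 CPM, 4.7-fold (log2 change 2.23 ± 0.34, edgeR adjusted p = 0.00033).

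In the list of p53 targets and cell death 11 of 28 fell, 7 rose and the median was -0.69. sesn3, a stress protein that restrains TOR signalling in mammals, stood at 4565, 4435, 4203 and 4223 CPM at 6 hpf and 992, 906, 1137 and 1098 CPM at 10 hpf and fell 4.22-fold (log2 change -2.08 ± 0.11, edgeR adjusted p = 2e-07). Cyclin G gene ccng1 fell 2.39-fold from 1654 ± 151 CPM at 6 hpf to 691 ± 72.1 CPM at 10 hpf. The cell cycle inhibitor cdkn1a rose 8.43-fold from 5.33 ± 0.903 CPM at 6 hpf to 44.9 ± 8.05 CPM at 10 hpf, and the survival gene bcl2l1 5.85-fold from 52.1 ± 9.66 CPM at 6 hpf to 305 ± 19 CPM at 10 hpf.

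Transcripts of embryonic tissues also shifted in the yolk libraries, and how far adhering blastoderm contributed was not tested. Enveloping layer and epidermis genes fell in 15 of 29 cases and rose in 1, with a median of -2.02. Without replicate 2 of 6 hpf 12 fell and 3 rose, and the median was -0.88. By the DESeq2 Wald test 9 fell. krt8, a keratin, stood at 2249, 1455, 1784 and 2426 CPM at 6 hpf and 1055, 1135, 1088 and 942 CPM at 10 hpf and fell 1.88-fold (log2 change -0.91 ± 0.16, edgeR adjusted p = 0.00074). grhl3, a transcription factor of periderm, fell 25.3-fold from 8.16 ± 6.29 CPM at 6 hpf to 0.319 ± 0.184 CPM at 10 hpf (log2 change -4.66, and -3.98 without replicate 2 of 6 hpf). anxa1a, an annexin, had 4129 ± 331 CPM at 6 hpf and 3791 ± 268 CPM at 10 hpf and did not pass the test (log2 change -0.12 ± 0.11, edgeR adjusted p = 0.352).

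Gastrula patterning genes rose in 22 of 51 cases and fell in 12, with a median of 0.50. bmp2b, a ventral signal, stood at 287, 176, 233 and 217 CPM at 6 hpf and 36.3, 30.5, 44.9 and 31.6 CPM at 10 hpf and fell 6.38-fold (log2 change -2.67 ± 0.18, edgeR adjusted p = 9.3e-07). Its dorsal antagonist chrd fell 21-fold from 78.5 ± 13.4 CPM at 6 hpf to 3.74 ± 2.48 CPM at 10 hpf, and fgf17 37-fold from 33 ± 7.22 CPM at 6 hpf to 0.886 ± 0.399 CPM at 10 hpf. dharma, an organizer gene first active in the dorsal syncytial layer, had 384 counts at 6 hpf and 0 at 10 hpf and was at least 122-fold lower. Posterior genes cdx1a and hoxb1b rose 19.5- and 188-fold from 3.78 and 0.467 CPM. The log2 change of cdx1a was 4.29, and 5.68 without replicate 2 of 6 hpf.

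Axial mesoderm genes rose in 9 of 12 cases and fell in 1 (median 2.17). shha, a signal of notochord and floor plate, went from 0.0314 ± 0.0628 CPM at 6 hpf to 2.98 ± 0.995 CPM at 10 hpf. cd9b, a tetraspanin, rose 4.72-fold from 54.6 ± 19 CPM at 6 hpf to 258 ± 42.8 CPM at 10 hpf. In endoderm 6 of 10 rose and 3 fell (median 1.42). Those that fell included sox32 and foxa3, given above. The summed level of the endoderm list also fell, from a mean of 2133 CPM at 6 hpf to 1613 CPM at 10 hpf. It ran from 1931 to 2364 CPM at 6 hpf and from 1477 to 1727 CPM at 10 hpf. sox17 rose 4.01-fold from 11.6 ± 2.06 CPM at 6 hpf to 46.6 ± 4.98 CPM at 10 hpf, foxa2 6.83-fold, and prdx5, a peroxiredoxin, 5.13-fold from 92.5 ± 14.1 CPM at 6 hpf to 475 ± 13.6 CPM at 10 hpf. Paraxial mesoderm had 6 of 12 up and 1 down, or 3 down with a replicate block (median 1.70), and neural genes 10 of 21 up and 2 down (median 1.17). gbx2, of the midbrain-hindbrain border, rose from 0.0656 to 12.5 CPM. Blood and vessel genes had 5 of 14 up and 3 down (median 1.2), or 1 down without replicate 1 of 6 hpf or replicate 2 of 10 hpf, and lcp1, a leukocyte actin bundler, stood at 9.93, 66.7, 8.79 and 8.35 CPM at 6 hpf, highest in replicate 2, and 1.13, 1.31, 2.07 and 1.12 CPM at 10 hpf. Its log2 change was -4.05, and -2.68 without that library.

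The largest rises that met the naming rule began at or near 0 counts. hoxc8a and hoxb10a, of the Hox clusters that pattern the body axis, had 0 counts at 6 hpf and 24.1, 27.5, 18.8 and 24.9 and 23.9, 23.6, 18.8 and 25.5 CPM at 10 hpf, at least 1147- and 1105-fold higher against 3 counts over the 6 hpf group. efna3b, an ephrin ligand, was likewise at 0 and was at least 579-fold higher. slc52a3, a riboflavin transporter, had 2 counts at 6 hpf and 2262 at 10 hpf, a ratio of 1183, with an exact 95% counting interval of 327 to 9772. lsp1 stood at 0, 0, 0 and 0.25 CPM at 6 hpf and 177, 226, 178 and 216 CPM at 10 hpf and rose 2767-fold (log2 change 11.43 ± 0.61, edgeR adjusted p = 3.1e-07), a fold that rests on the counts of 1 library at 6 hpf. angptl2b, a secreted angiopoietin-like protein, stood at 0.0628, 0.324, 0.168 and 0.05 CPM at 6 hpf and 169, 153, 164 and 187 CPM at 10 hpf and rose 1082-fold (log2 change 10.08, and 10.77 without replicate 2 of 6 hpf). The glucagon receptor gene gcgrb went from 0.126 ± 0.148 CPM at 6 hpf to 90.3 ± 6.62 CPM at 10 hpf, 674-fold (log2 change 9.40, and 10.05 without replicate 3 of 6 hpf).

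Genes named for the size of their fall had at least 10 CPM at 6 hpf, as the naming rule asks. has2, hyaluronan synthase, stood at 592, 429.5, 570.2 and 440.0 CPM at 6 hpf and 4.81, 4.51, 4.14 and 3.89 CPM at 10 hpf. It fell 117-fold (log2 change -6.87 ± 0.18, edgeR adjusted p = 8.6e-09). stap2a, a signalling adaptor, stood at 363, 284, 296 and 329 CPM at 6 hpf and 2.2, 2.34, 1.87 and 2.59 CPM at 10 hpf and fell 141-fold. lingo2b, a leucine-rich membrane protein, went from 74.6 ± 20.4 CPM at 6 hpf to 0.0734 ± 0.112 CPM at 10 hpf, 981-fold (log2 change -9.94 ± 0.62, edgeR adjusted p = 7.2e-07), and its log2 change was -11.68 without replicate 4 of 10 hpf. il6, an inflammatory cytokine, fell 143-fold from 62.6 ± 25.1 CPM at 6 hpf to 0.433 ± 0.448 CPM at 10 hpf (log2 change -7.16, and -8.06 without replicate 1 of 10 hpf), the neuropeptide Y receptor npy7r 144-fold, and netrin ntn2 132-fold.

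The change in yolk was set against that in whole embryos of the same ages in a fit of 16 libraries, as a difference of log2 changes. It was higher in yolk for 3272 genes (17.0%) and lower for 2736 (14.2%), 31.3% in either direction, and the median difference of all genes was 0.13. Scaling by library totals moved that median to -0.37 and the counts to 1724 higher and 4883 lower, so the share of higher calls went from 54.5% to 26.1%, and directions below are relative to the TMM scale. Whole embryos contain the yolk, so the 2 tissues are not separate. Of the genes that rose in yolk, 2323 had a higher change there than in whole embryos and 132 a lower one. Of the genes that fell, 1832 had a lower change there and 194 a higher one. For 2935 that rose and 2999 that fell the difference did not pass the test. Both tests use the same yolk libraries, so genes picked for a change in yolk lean to a difference of the same sign. These splits therefore do not show that changes were larger in yolk.

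**Figure D5:**
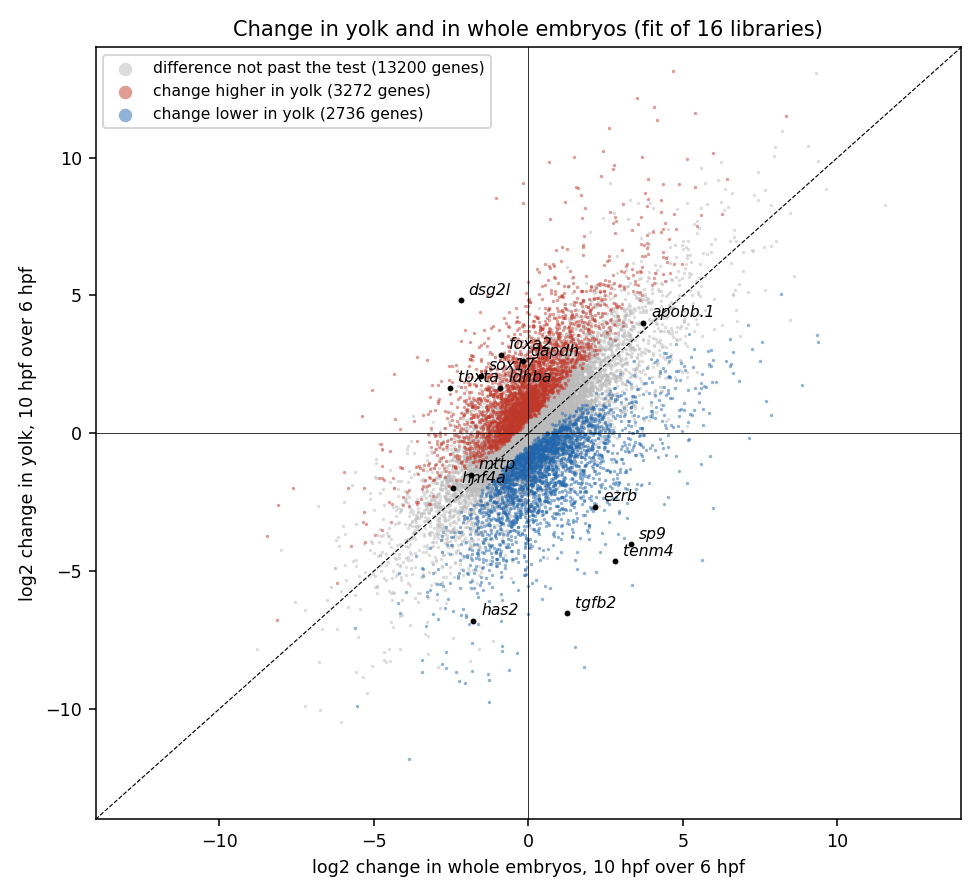
Each dot is a tested gene, with its log2 change from 6 to 10 hpf in whole embryos on the horizontal axis and in yolk on the vertical axis, from the fit of 16 libraries. Red marks the 3272 genes with a higher change in yolk and blue the 2736 with a lower one, and the dashed line is equal change. The points of apobb.1, mttp and hnf4a are grey and near the line, and gapdh, foxa2, tbxta and dsg2l are above it.

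For most lipoprotein genes the difference did not pass the test, which does not show that both tissues changed alike. For apolipoproteins the median change was 1.84 in whole embryos, and 4 of 13 differed, all higher in yolk, or 2 under library totals and 6 without replicate 2 of yolk at 6 hpf. apobb.1 changed by 3.72 in whole embryos (difference 0.28 ± 0.36, edgeR adjusted p = 0.594), mttp by -1.86 (difference 0.35 ± 0.21, edgeR adjusted p = 0.215) and hnf4a by -2.43 (difference 0.43 ± 0.23, edgeR adjusted p = 0.163). None of these 3 differences passed the threshold, although that of hnf4a did with a replicate block (0.41 ± 0.15, edgeR adjusted p = 0.0494) and without replicate 2 of whole embryos at 6 hpf (0.56 ± 0.20, edgeR adjusted p = 0.0417). apoeb did differ, with 3990.1 ± 491 CPM at 6 hpf and 3155 ± 237 CPM at 10 hpf in whole embryos and 16675 ± 1883 CPM at 6 hpf and 27447 ± 903 CPM at 10 hpf in yolk on this scale (difference 1.06 ± 0.16, edgeR adjusted p = 6.8e-05). Where 17.0% of all tested genes were higher and 14.2% lower, plasma protein genes differed in 7 of 38 cases, all higher in yolk. That count was 3 under library totals, 11 with a replicate block and 15 without replicate 2 of yolk at 6 hpf. It was 3 or 4 without any 1 of replicate 3 of yolk at 6 hpf, replicate 1 of yolk at 10 hpf, replicates 1 and 2 of whole embryos at 6 hpf and replicates 2, 3 and 4 at 10 hpf.

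Further lists are given by their counts. Of 25 glycolysis genes 9 were higher and 3 lower, of 21 proton pump subunits 11 and 2 (5 and 2 under library totals), and of 51 gastrula patterning genes 31 and 7 (25 and 8 under library totals). Enveloping layer and epidermis genes were higher in 1 and lower in 14 of 29, or 3 and 14 without replicate 2 of yolk at 6 hpf. Lower ones numbered 7 by the DESeq2 Wald test, 8 with no filter, and 9 without replicate 4 of yolk at 10 hpf, replicate 4 of whole embryos at 6 hpf or replicate 1 at 10 hpf. gapdh stood at 187 ± 13.8 CPM at 6 hpf and 1144 ± 102 CPM at 10 hpf in yolk and 117 ± 16.3 CPM at 6 hpf and 104 ± 10.7 CPM at 10 hpf in whole embryos (difference 2.78 ± 0.17, edgeR adjusted p = 6.6e-09). Similarly foxa2, a pioneer factor of endoderm, changed by 2.77 in the fit of yolk alone. In the fit of 16 libraries foxa2 changed by -0.89 in whole embryos (difference 3.73 ± 0.27, edgeR adjusted p = 3.6e-08). tbxta, the notochord T-box gene, stood at 20.6 ± 13 CPM at 6 hpf and 64.9 ± 9.52 CPM at 10 hpf in yolk and 408 ± 34 CPM at 6 hpf and 71.2 ± 6.13 CPM at 10 hpf in whole embryos (difference 4.17 ± 0.43, edgeR adjusted p = 2.1e-06).

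Among the largest differences, dsg2l, a desmosomal cadherin-like gene, stood at 1.44 ± 0.516 CPM at 6 hpf and 40.7 ± 12.1 CPM at 10 hpf in yolk and 32.6 ± 11.9 CPM at 6 hpf and 7.16 ± 1.02 CPM at 10 hpf in whole embryos (difference 7.01 ± 0.45, edgeR adjusted p = 1e-08). ednrab, an endothelin receptor, had 0 counts in yolk at 6 hpf and 6.72, 12.6, 9.78 and 9.97 CPM at 10 hpf, at least 471-fold higher, with 0.0253 ± 0.0506 CPM at 6 hpf and 0.462 ± 0.195 CPM at 10 hpf in whole embryos. Its 6 hpf level was at or near 0 in both tissues, so the size of its difference rests on few counts. In the other direction tgfb2, a signalling ligand, stood at 50.1 ± 15.8 CPM at 6 hpf and 0.537 ± 0.236 CPM at 10 hpf in yolk and 2.78 ± 1.44 CPM at 6 hpf and 6.63 ± 1.92 CPM at 10 hpf in whole embryos (difference -7.79 ± 0.59, edgeR adjusted p = 6.2e-08). tenm4, a teneurin of the cell surface, stood at 44.3 ± 10 CPM at 6 hpf and 1.76 ± 0.859 CPM at 10 hpf in yolk and 5.93 ± 2.11 CPM at 6 hpf and 41.8 ± 7.62 CPM at 10 hpf in whole embryos (difference -7.46 ± 0.49, edgeR adjusted p = 1.2e-08). sp9, a zinc finger factor, fell 17.1-fold in the fit of yolk alone and changed by 3.34 in whole embryos in the fit of 16 libraries. has2 changed by -1.78 in whole embryos (difference -5.03 ± 0.26, edgeR adjusted p = 2.8e-09).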

How the data were processed

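Total RNA of wild type yolk and whole embryos was extracted with TRIzol, per the labels' protocols. The authors deposited raw counts for each gene symbol and library, neither normalized nor pooled. Tools named per the submitters' processing notes are featureCounts 2.0.6, STAR 2.7.10b, Trim Galore 0.6.10 and FastQC 0.12.1, with build GRCz11. The sources used here give no settings, annotation or strand, so overlapping and antisense genes and near-identical copies cannot be told apart.

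Counts of the 8 yolk libraries (filterByExpr, TMM) entered edgeR 4.0.16 (R 4.3.3, robust quasi-likelihood fit, 6 residual degrees of freedom). Older libraries would set the filter, the scaling and the spread, and entered only an alternative of 32 libraries. The difference from whole embryos used 16 libraries, the same genes and 12 residual degrees of freedom. Tests were two-sided, and SE is the log2 change over the root of F. Where a group had 0 counts the bound is against 3 counts over the group; 1 to 3 counts carry an exact 95% counting interval. Both cover counting error only. Every pair of replicates differed beyond sampling noise (chi-square per gene at least 36.1). The fits were also run on simulated data in which only a small part of the genes changed. That run does not cover a share of changed genes as large as in these data.

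Members and lists were chosen with earlier results of these data known, and 4 lists beyond the 34 of the report after the values of this comparison were seen. Of the listed symbols 6 were matched through a synonym and 29 had no match, and some genes are in more than 1 list. Eligible for naming were the 10 largest log2 changes and 6 largest CPM changes per direction (past the test, at least 10 CPM in the higher group, no overlap, no clone name), up to 6 largest called changes and 3 highest levels of each list, 13 focal genes and the 5 largest differences from whole embryos per direction. Not all are named, and a gene outside this rule is said to be so or was chosen after its values were seen.

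Deviations from group means correlated at 0.285 to 0.389 between libraries of the same number and at most 0.0733 between others, over 7608 genes, a pairing that rests on the data alone, as no label explains the numbers. The tests above ignore it, and a replicate block that uses it was an alternative. The others were DESeq2 1.42.0 size factors and Wald test, library totals, no filter, 16 and 32 libraries, and removal of mitochondrially encoded genes or of each library in turn.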

Additional observations from a re-analysis of the deposited data

Results flagged for a closer look

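Of 358 groups of 4 libraries of named genes, 31 held a library far from the other 3 (by Dixon's test), where chance flags about 1 in 20 groups. A group with counts in only 1 library, such as c8a or lsp1 at 6 hpf, is always flagged. The named genes were also picked from these data, so these shares do not test for an excess. Of the 31, 9 were replicate 2 of yolk at 6 hpf. That library was highest for the enveloping layer genes lye (235 CPM), krt97 (223 CPM) and cldne (90.9 CPM), for lcp1 (66.7 CPM), pou5f3 (75.5 CPM), elovl7a (29.9 CPM), mcm6 (24.7 CPM) and c8a (0.162 CPM), and lowest for khdrbs1a (2583 CPM). What set it apart was not tested.

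Replicate 1 of 6 hpf was highest for mia2 (1581 CPM), slc43a2b (2983 CPM), agpat2 (872 CPM), onecutl (192 CPM) and shha (0.126 CPM), and lowest for atp5f1b (95.2 CPM) and pdia4 (10.3 CPM). Replicate 3 was lowest for elovl5 (18.9 CPM). Replicate 4 was highest for hmox1a (2.23 CPM) and was the only 6 hpf library with counts of hoxb9a (0.200 CPM), lsp1 (0.25 CPM), slc52a3 (0.050 CPM) and soat2 (0.0250 CPM).

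At 10 hpf replicate 1 was lowest for ccnb3 (22.8 CPM) and cdc20 (32.8 CPM) and highest for mxtx2 (0.464 CPM) and sp9 (1.1 CPM). Replicate 2 was lowest for hnf4a (245 CPM) and highest for atp6v0ca (542 CPM) and tgfb2 (0.685 CPM). Replicate 4 was highest for fetub (19047 CPM) and slc40a1 (23.5 CPM).

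The change from 6 to 10 hpf differed between yolk and whole embryos by the test of the difference itself, with 3272 genes higher and 2736 lower in yolk. Named genes with a higher change in yolk included dsg2l (7.01 on the log2 scale), tbxta (4.17), foxa2 (3.73), gapdh (2.78), apoa1b (1.11) and apoeb (1.06). Those with a lower change included tgfb2 (-7.79), tenm4 (-7.46) and has2 (-5.03). Neither list is complete.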

How the results depend on the processing

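Leaving out each library in turn gave 4872 to 5469 genes higher and 4545 to 4927 lower in yolk at 10 hpf, and 2927 to 3522 higher and 2443 to 2742 lower differences from whole embryos. The replicate block gave 5669 and 5202 genes, and 3728 and 3032 differences. It changed no named call other than that of ctsla and the difference of hnf4a. The fit of 32 libraries gave 6775 and 6140 genes, and that of 16 libraries 6124 and 5099. No called change in yolk changed sign in any of these alternatives. Library totals gave 1724 higher and 4883 lower differences, and 45 of 6008 called differences changed sign. The differences of apobb.1, mttp and hnf4a, none of them called, then went to -0.202, -0.144 and -0.0676. Of 179 named genes 171 kept call and direction in yolk in all 16 alternatives, though lcp1, krt97 and lye have no adjusted p by the DESeq2 Wald test. The named genes were picked from these data, many for large changes, so that share does not describe other genes. Of all 10415 called changes in yolk, leaving out 1 library kept 89.2 to 93.5%. The call of tbxta was lost with 32 libraries, those of ctsc and mt-co1 as given beside them. ctsla passed the test in 7 alternatives. Library totals brought mia2, anxa1a and slc43a2b past the test. The uncalled change of apoc2 went to 0.0113 with no filter, 0.0555 with 16 libraries and -0.142 to 0.0911 with 1 library left out. Among lists with 1 to 3 members lower, those of lipoprotein assembly, neural tissue, paraxial mesoderm and the respiratory chain moved by 1 or 2 members when a library was left out or with the block. Causes were not tested. Depth limits genes near 0 counts at 1 age, whose folds rest on few counts.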

Other observations

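Further gene groups that moved in yolk between 6 and 10 hpf were found after the values were seen, so their counts are descriptions with no independent weight. Of 14 tested genes of de novo purine synthesis 8 rose and 2 fell, with a median log2 change of 1.22. paics and gart, enzymes of that pathway, rose 2.93- and 6.1-fold from 1176 and 232 CPM, and atic, of its last steps, 11.1-fold from 47.5 CPM. Enzymes of the methyl cycle, one-carbon metabolism and creatine synthesis rose in 17 of 24 cases and fell in 4 (median 1.80). bhmt, which remakes methionine from homocysteine, stood at 1029.9, 572, 673 and 789 CPM at 6 hpf and 9529, 7580.3, 8990.1 and 5118 CPM at 10 hpf and rose 10.2-fold (log2 change 3.35 ± 0.24, edgeR adjusted p = 1.4e-06). Creatine synthesis needs gatm and gamt. gatm stood at 337, 289.8, 333 and 476 CPM at 6 hpf and 6111, 5944, 6551 and 4791 CPM at 10 hpf and rose 16.3-fold, and gamt rose 53-fold from 17.5 ± 4.09 CPM at 6 hpf to 928 ± 139 CPM at 10 hpf. mat1a, the liver form of the enzyme that makes S-adenosylmethionine, stood at 1.76, 1.89, 0.728 and 2.35 CPM at 6 hpf and 375, 303, 343 and 574 CPM at 10 hpf and rose 236-fold (log2 change 7.88 ± 0.39, edgeR adjusted p = 1.6e-07).

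RNA-binding proteins of the hnRNP family and related splicing factors went down in 17 of 29 cases and up in 4 (median -0.48). khdrbs1a stood at 2946, 2583, 3004 and 2969.9 CPM at 6 hpf and 1106, 922, 1107 and 1050.3 CPM at 10 hpf and fell 2.75-fold (log2 change -1.46 ± 0.11, edgeR adjusted p = 1.7e-06). ptbp1b, a polypyrimidine tract binding protein, stood at 1868, 1518, 1859 and 1587 CPM at 6 hpf and 348, 380.1, 390.1 and 397 CPM at 10 hpf and fell 4.51-fold, while its paralog ptbp1a rose 1.76-fold from 115 ± 8.76 CPM at 6 hpf to 203 ± 18.2 CPM at 10 hpf. Of 49 Hox genes 31 were tested, and of these 27 rose and 0 fell. Their median was 5.65, or 5.34 with 0-count genes at their bound. Relative to whole embryos 3 rose more and 9 less, or 5 more by the DESeq2 Wald test or without replicate 3 of whole embryos at 6 hpf. Genes with 0 counts at 6 hpf passed the filter through 10 hpf alone, so they could only rise. Among Hox genes not tested both directions occurred. From 6 to 10 hpf hoxc13b went from 92 to 0 counts and hoxc10a from 0 to 80. Beside hoxc8a and hoxb10a, hoxb9a went from 0.05 ± 0.1 CPM at 6 hpf to 32.1 ± 1.5 CPM at 10 hpf and hoxb7a from 0.126 ± 0.178 CPM at 6 hpf to 11.4 ± 1.34 CPM at 10 hpf.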
